A study of Mus musculus with 18 samples.

Results

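A run of 50 neighboring genes on proximal chromosome 9 is described here in E0771 cells, a mouse mammary tumor cell line used as a model of triple-negative breast cancer. The members are the protein-coding genes of chromosome 9 in the interval chr9:22475715-44234049 of the mouse genome GRCm38 whose mean level over all 18 libraries was above 2 CPM (CPM are a gene's counts scaled to library size), leaving out the genes whose symbols start with Adamts. This gave 50 members among the 50686 genes of the files. The interval was found because its genes were lower in both Cdk8 knockdown lines than in control cells, so the members were selected on the measured difference between the lines, and that difference is given below as a description. The rule does not name a treatment, so the values in DMSO and those in inhibitor may both have entered the choice. The libraries kept in inhibitor come from the same 3 lines and not from further lines.

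All cells carried a firefly luciferase construct and, in a second step, a retroviral vector with an mCherry marker that expressed 1 hairpin RNA: against Renilla luciferase, which the cells do not carry (cntrl), or against Cdk8 (shCdk8-1 and shCdk8-2). For 48 h each of these lines received either DMSO or Senexin B (SnxB) at 1 µM, an inhibitor of the kinases CDK8 and CDK19, which gives 6 groups of 3 libraries. Whether a line grew from 1 clone is not given in the sources used here. Nothing says either whether the 3 libraries of a group came from separate cultures, so the p-values measure the spread between these libraries, which may be technical. With 1 line per hairpin, what sets 1 line apart from another and the action of its hairpin cannot be told apart.

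The members have no shared function by which they were chosen, and what joins them is their place on the chromosome. Genes in an interval of this size belong to many transcription units, most with a promoter of their own, and some start head to head from a common promoter region. The best known gene of the interval is Ets1, which encodes a transcription factor that binds GGAA cores and is active in invasive tumor cells. Around it lie genes for the checkpoint kinase CHK1 (Chek1), the chaperone HSC70 (Hspa8), the ubiquitin ligase CBL (Cbl), the receptor of the signal recognition particle (Srpr) and adhesion molecules such as MCAM and nectin-1. The number of DNA copies of the interval in each line was not measured.

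Depth ran from 16452260 to 22664693 counts per library (median 19029320), and 3 counts stand for 0.131 to 0.185 CPM. Cdk8 was at 55.0 ± 2.04 CPM (SD, n = 3) in cntrl cells in SnxB, 23.1 ± 2.57 in shCdk8-1 and 39.5 ± 2.57 in shCdk8-2. A ± after a log2 fold change is its standard error (SE) here, and after a CPM value the SD. The log2 fold changes of Cdk8 against cntrl were -1.25 and -0.48 (adjusted p = 1.24e-11 and 7.33e-06), so both lines carried less Cdk8 mRNA and shCdk8-1 the least. Its homolog Cdk19 was 0.41 and 0.21 higher on the log2 scale. The mesenchymal markers Vim and Zeb1 had means of 4027 and 158 CPM, while the third, Fn1, was nearly absent (mean 0.0301 CPM). In SnxB Vim averaged 4152 CPM in cntrl, 3694 in shCdk8-1 and 3789 in shCdk8-2, and Zeb1 217, 132 and 144, so both means were lower in the knockdown lines. Of 6 epithelial markers Cldn3 had no count and Krt18, Krt7, Epcam and Cdh1 each had a mean under 0.45 CPM. The epithelial markers summed to 0.219 to 0.464 CPM in the 6 cntrl libraries and to 7.74 to 14.6 CPM in the 12 libraries of the knockdown lines, nearly all of it Krt8. Endothelial markers also moved with the line: their sum was 2.72 to 5.61 CPM in cntrl, 13.6 to 17.9 in shCdk8-1 and 6.41 to 7.69 in shCdk8-2, through Pecam1, while Cdh5 and Kdr were highest in cntrl. The part of these markers in the results on the block was not tested.

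The interval spans 21.8 Mb and holds 518 annotated genes, 215 of them protein-coding. Besides the members it holds 163 protein-coding genes below the threshold, of which 106 had no count in any library and 95 are olfactory receptor genes, a family used by the sensory neurons of the nose. A further 4 non-coding genes and 1 gene left out for its symbol also passed 2 CPM. The first is Bbs9, a subunit of the BBSome that carries cargo to cilia (ENSMUSG00000035919.16, chr9:22475715-22888280, plus strand), and the last is Cbl (ENSMUSG00000034342.9, chr9:44142976-44234049, minus strand). Their exons are longer than those of other expressed genes, with a median of 5376 bases against 4358, and 23 of 50 (46%) lie on the plus strand. On a per-length scale, the levels ran from 0.219 CPM per kb of exon for Sorl1 to 233 for Aplp2, with Hspa8 (156) and Srpr (149.7) next below Aplp2.

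Summed over the members, the cntrl libraries in DMSO held 11114, 11048 and 11340 CPM, the shCdk8-1 libraries 5999, 6199 and 5968 and the shCdk8-2 libraries 6948, 6967 and 7006. In SnxB the sums were 11826, 11414 and 11279 CPM in cntrl, 6015, 6085 and 6080 in shCdk8-1 and 7143, 7031 and 6980 in shCdk8-2. The 3 lines thus stood apart in both treatments without overlap, with cntrl highest and shCdk8-1 lowest. As a share of all counts the block took 1.10 to 1.12% in cntrl, 0.601 to 0.616% in shCdk8-1 and 0.704 to 0.719% in shCdk8-2. In bulk libraries such as these, fewer cells that express a gene and less of its RNA per cell cannot be told apart.

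In DMSO, 43 of 50 members were called lower in shCdk8-1 than in cntrl by edgeR's quasi-likelihood test at an adjusted p under 0.05, against 30.6% of the 12590 genes tested, and 4 were called higher, against 30.0%. The median log2 fold change of the members was -0.85. For shCdk8-2 the counts were 42 lower (29.5% of all genes) and 3 higher (28.7%), with a median of -0.57.  In SnxB, 43 members were lower and 4 higher in shCdk8-1 than in cntrl, beside 30.1% and 30.5% of the 12772 genes tested, and 41 were lower and 2 higher in shCdk8-2, beside 28.6% and 28.1%. The medians over the members were -0.82 and -0.64. The median over all genes tested was 0.01 in either comparison. All 41 genes lower in both lines in SnxB were also lower in both lines in DMSO. Nothing is read from the counts of either treatment, since the members were taken from an interval picked for this difference.

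With the further demand of a fold change above 2, 20 members in shCdk8-1 and 15 in shCdk8-2 were lower in SnxB, beside 7.06% and 5.75% of all genes. Put as the level left in the knockdown line, the median member was at 56.8% of cntrl in shCdk8-1 and at 64.0% in shCdk8-2, and the lowest were Mcam at 22.6% and Slc37a2 at 36.2%. In 42 members all 3 shCdk8-1 libraries lay below all 3 cntrl libraries (30.6% of all genes), and in 41 members all 3 shCdk8-2 libraries did (30.8%).

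**Figure D1:**
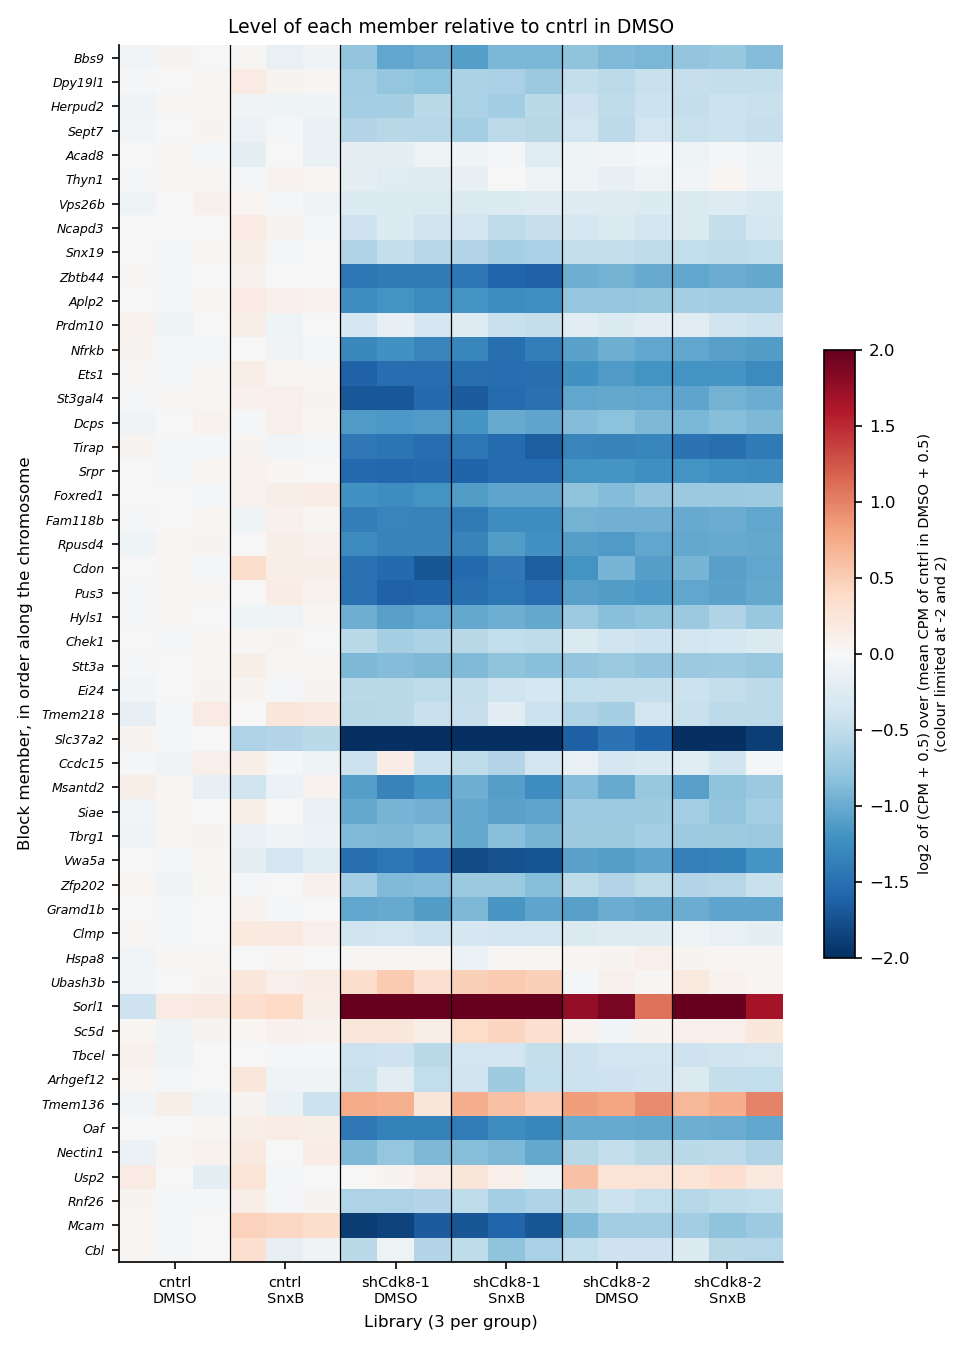
Heat map of the 50 members (rows, in chromosome order) in the 18 libraries (columns, by group), with color for log2 (CPM + 0.5) relative to the mean of cntrl in DMSO. Most rows are low in the 12 libraries of both knockdown lines, and the rows of Sorl1 and Tmem136 are high there. Of the 50 members, 41 were called lower in both lines in both treatments.

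The decrease was not equal along the interval. Counted from the first member's start and in SnxB, the 8 members of the first 5 Mb had median log2 fold changes of -0.50 in shCdk8-1 and -0.36 in shCdk8-2. The medians were -1.33 and -0.80 for the 5 members from 5 to 10 Mb and -1.30 and -1.03 for the 17 members from 10 to 15 Mb, the stretch that holds Ets1 and Srpr. They were -0.66 and -0.46 for the 12 members from 15 to 20 Mb and -0.69 and -0.56 for the last 8. The medians thus formed a trough in the middle with shallower shoulders in both lines. Single genes departed from it in both directions. Mcam, in the last segment, was at -2.15 and -1.17, while Prdm10, from 5 to 10 Mb, was at -0.40 and -0.36. From 10 to 15 Mb, Chek1 was at -0.55 and -0.36 and Ei24 at -0.43 and -0.50. Vwa5a, from 15 to 20 Mb, was at -1.51 and -1.05. The shape is thus one of medians over segments of a set width and not of each gene. These segments share the cntrl libraries between lines and were not tested against each other.

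**Figure D2:**
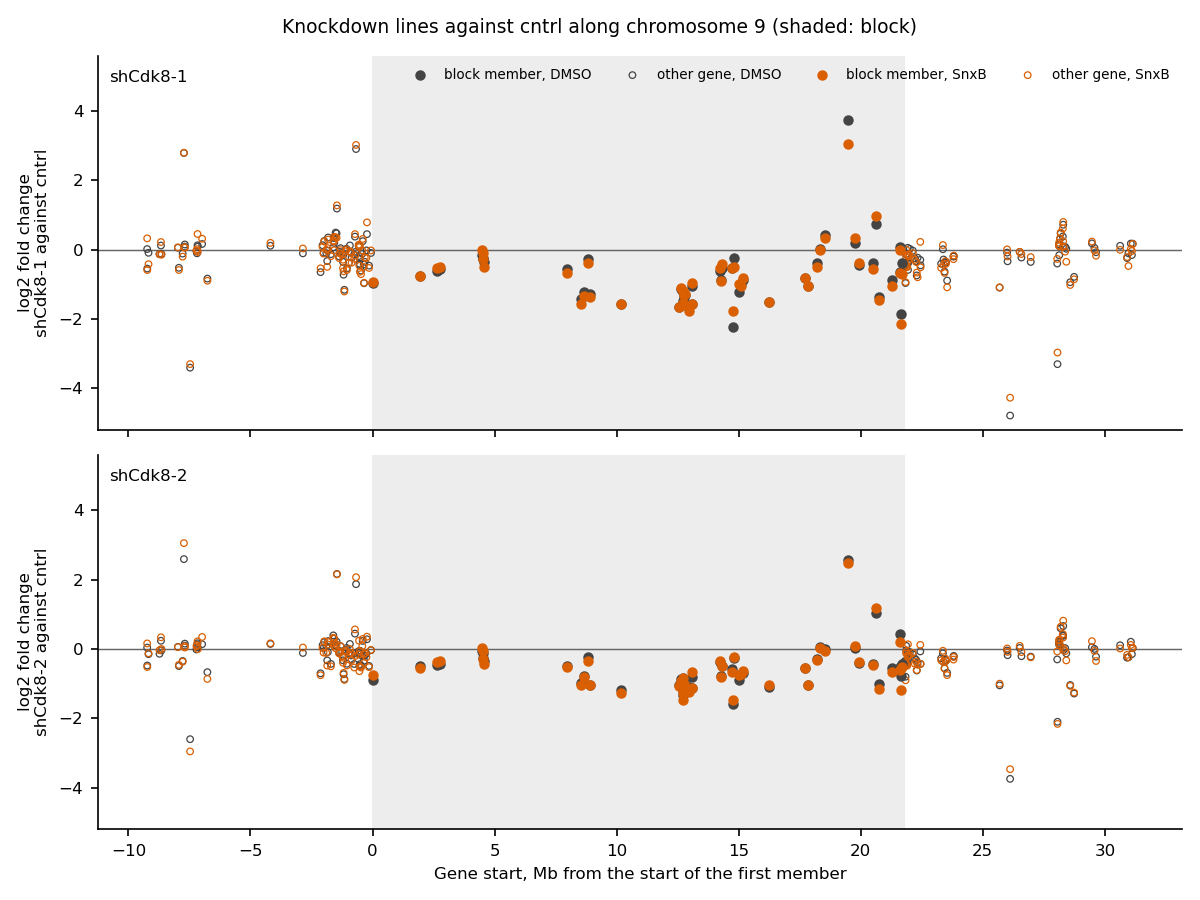
Log2 fold change against cntrl of each protein-coding gene above 2 CPM by its distance in Mb from the start of the first member, for both knockdown lines in DMSO and in SnxB, with 10 Mb on either side and the block shaded. Inside the shading most genes lie below 0, with medians of -0.82 in shCdk8-1 and -0.64 in shCdk8-2 in SnxB; the 71 genes before it have medians of -0.05 in both lines, and the 60 genes after it -0.21 and -0.18.

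The 71 expressed protein-coding genes in the 10 Mb before it had medians of -0.05 in both lines in SnxB, and the 521 other expressed genes of chromosome 9 had -0.01 and -0.00. The 60 genes in the 10 Mb after it were at -0.21 and -0.18, which lies between the block and the rest. Chromosomes as wholes ranged from -0.35 to 0.31 in shCdk8-1 and from -0.34 to 0.37 in shCdk8-2, so medians away from 0 also occurred over whole chromosomes elsewhere. The edges given by the rule are not steps in every gene. Before the first edge, Bbs9 changed by -0.94 ± 0.0771 (SE) and -0.76 ± 0.0757, while its outer neighbor Rp9 was at -0.03 and -0.03. The next gene out, Anln, which encodes the cytokinesis protein anillin, was at -0.53 and -0.53, and Zfp599 was at 0.78 and 0.35. At the other edge, Cbl changed by -0.70 ± 0.121 and -0.51 ± 0.121, and the nearest genes beyond it, Nlrx1 (-0.52 and -0.49), Hinfp (-0.42 and -0.49) and C2cd2l (-0.94 and -0.90), were also below 0. Of the level threshold, the members just inside were Sorl1 (mean 2.48 CPM), Tmem136 (2.49) and Usp2 (6.29), and the genes just outside were Olfr920 (1.57), Esam (1.53) and St14 (1.504).

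Of the members, 44 fall into 5 lists by role, 3 of them into a pair of lists, and 6 into none. The transcription factors and chromatin proteins were lower throughout: all 6 members of this list passed the test in both lines in SnxB, with medians of -1.18 in shCdk8-1 and -0.90 in shCdk8-2, beside the shares of all genes given above (30.1% and 28.6%). Ets1 (ENSMUSG00000032035.15, chr9:32636221-32757820, plus strand) read 771.5, 738 and 769 CPM in cntrl, 246, 264 and 263 in shCdk8-1 and 329, 347 and 333 in shCdk8-2 in DMSO. In SnxB it read 832, 780.5 and 770.8 CPM in cntrl, 268, 264 and 267 in shCdk8-1 and 331, 335 and 314 in shCdk8-2. The 3 lines did not overlap in either treatment, and the log2 fold changes in SnxB were -1.58 ± 0.0397 (SE, adjusted p = 1.50e-17) and -1.28 ± 0.0393 (adjusted p = 5.75e-16).

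Zbtb44, a zinc finger protein with a BTB domain, read 358, 333 and 339 CPM in cntrl, 124, 112 and 109 in shCdk8-1 and 164, 169.6 and 166 in shCdk8-2 in SnxB. All 9 libraries kept the order of the lines, with log2 fold changes of -1.58 ± 0.0412 and -1.04 ± 0.0403. Nfrkb, which encodes a subunit of the INO80 chromatin remodeling complex, read 205, 193 and 198 CPM in cntrl, 81.6, 71.3 and 77.7 in shCdk8-1 and 98.2, 95.1 and 93.8 in shCdk8-2. It changed by -1.37 ± 0.0461 and -1.05 ± 0.0454, again without overlap. Prdm10, a zinc finger factor, had the smallest change of the list: it read 52.4, 45.7 and 48.2 CPM in cntrl, 40.2, 35.5 and 34.9 in shCdk8-1 and 41.5, 36.7 and 35.7 in shCdk8-2. The knockdown lines lay below cntrl (-0.40 ± 0.0688 and -0.36 ± 0.0685) and overlapped each other. The list's other members, Zfp202 and Msantd2, changed by -0.81 and -0.98 in shCdk8-1 and by -0.56 and -0.75 in shCdk8-2.

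The list of genome maintenance and cell division held 7 members, all lower in both lines in SnxB (30.1% and 28.6% of all genes), with medians of -0.55 and -0.50. In this list 1 member, Nfrkb, passed a fold of 2. Sept7, a septin of the cytokinesis furrow, read 484, 516 and 481 CPM in cntrl, 328, 366 and 359 in shCdk8-1 and 385, 392 and 384 in shCdk8-2. The lines did not overlap (-0.49 ± 0.0461 and -0.35 ± 0.0460). Tbrg1, a growth inhibitor linked to p53, read 333, 345 and 335 CPM in cntrl, 178, 203 and 191 in shCdk8-1 and 219, 221 and 217 in shCdk8-2. It changed by -0.83 ± 0.0418 and -0.63 ± 0.0416. Ei24, a p53-induced protein of the endoplasmic reticulum, read 210.2, 196 and 209.5 CPM in cntrl, 146, 154 and 158 in shCdk8-1 and 149.6, 146 and 141 in shCdk8-2. Here the knockdown lines overlapped each other and lay below cntrl, with changes of -0.43 ± 0.0391 and -0.50 ± 0.0392. Chek1, whose kinase halts the cell cycle when replication stalls, changed by -0.55 ± 0.0432 (adjusted p = 9.89e-10) and -0.36 ± 0.0427 (adjusted p = 4.54e-07), and its libraries in SnxB read 90.7, 92.9 and 89.7 CPM in cntrl, 60.9, 63.4 and 62.9 in shCdk8-1 and 69.5, 70.0 and 73.4 in shCdk8-2. No line overlapped another. Ncapd3, a subunit of condensin II, and Hyls1, a centriole protein needed for cilia, changed by -0.52 and -0.97 in shCdk8-1 and by -0.44 and -0.66 in shCdk8-2.

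Genes of protein folding, ubiquitin and trafficking were the most mixed list. Of its 14 members, 10 were lower, 2 higher and 2 not called in shCdk8-1 in SnxB, and 10 were lower, 1 higher and 3 not called in shCdk8-2, with medians of -0.60 and -0.50. Of all genes 30.1% were lower and 30.5% higher in shCdk8-1, and 28.6% and 28.1% in shCdk8-2. Aplp2, a relative of the amyloid precursor protein (ENSMUSG00000031996.17, chr9:31149557-31211815, minus strand), read 1999, 1937 and 2011 CPM in cntrl, 839.6, 862 and 824 in shCdk8-1 and 1156, 1164 and 1169 in shCdk8-2 in DMSO. In SnxB it read 2223, 2136 and 2077 CPM in cntrl, 865, 839 and 851 in shCdk8-1 and 1257, 1219 and 1230.0 in shCdk8-2. It was the member with the highest level, and its lines did not overlap (-1.33 ± 0.0340 and -0.80 ± 0.0336 in SnxB). Srpr, the alpha subunit of the receptor that docks ribosomes with nascent secretory chains (ENSMUSG00000032042.11, chr9:35200175-35247973, plus strand), read 891, 866 and 852 CPM in cntrl, 278, 292 and 292 in shCdk8-1 and 369, 363 and 359 in shCdk8-2. Its changes of -1.60 ± 0.0325 (adjusted p = 7.49e-19) and -1.26 ± 0.0322 (adjusted p = 4.43e-17) had small errors for their size. Stt3a, the catalytic subunit of an oligosaccharyltransferase that adds N-glycans, read 996, 936 and 946 CPM in cntrl, 500.1, 524 and 516 in shCdk8-1 and 546, 557 and 543 in shCdk8-2. It changed by -0.90 ± 0.0336 and -0.81 ± 0.0336, without overlap.

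Hspa8, the constitutive chaperone HSC70 (ENSMUSG00000015656.17, chr9:40800984-40810087, plus strand), was not called lower in either line, unlike most members. It read 633, 675 and 673 CPM in cntrl, 669, 672 and 679 in shCdk8-1 and 676, 688 and 706 in shCdk8-2 in DMSO. In SnxB it read 661, 672 and 657 CPM in cntrl, 608, 674 and 676 in shCdk8-1 and 687, 680.1 and 674 in shCdk8-2. The ranges of cntrl and shCdk8-1 overlapped in both treatments, whereas all shCdk8-2 libraries lay above all cntrl libraries in both, though the gene was not called. The log2 fold changes in SnxB were -0.02 ± 0.0390 (adjusted p = 0.633) and 0.04 ± 0.0390 (adjusted p = 0.449). These errors are small beside the block's medians. Clmp, the member just before it on the chromosome, was lower in both lines, at -0.52 and -0.31. Ubash3b, which encodes a phosphatase that dampens receptor signaling and lies just after it, was higher in shCdk8-1 by 0.33 ± 0.0563 and stood at -0.06 ± 0.0575 in shCdk8-2. Its libraries in SnxB read 41.4, 38 and 39.1 CPM in cntrl, 49.1, 50.8 and 49.0 in shCdk8-1 and 40.4, 37.2 and 36.2 in shCdk8-2. All shCdk8-1 libraries were above the 6 others. Hspa8, Ubash3b and the next members along the chromosome, Sorl1 and Sc5d, were not called lower in either line in either treatment.

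Sorl1, a sorting receptor of the endosome (ENSMUSG00000049313.8, chr9:41964720-42124297, minus strand), was higher in both lines. Its mean was 0.333 CPM in cntrl in DMSO and 0.520 in SnxB, so it passed the threshold of 2 CPM through the knockdown libraries alone, and its increase is given as a description. It read 0.123, 0.434 and 0.441 CPM in cntrl, 4.75, 4.96 and 4.34 in shCdk8-1 and 2.31, 2.60 and 1.26 in shCdk8-2 in DMSO. In SnxB it read 0.547, 0.603 and 0.410 CPM in cntrl, 4.19, 3.92 and 4.97 in shCdk8-1 and 3.203, 3.42 and 2.13 in shCdk8-2. The cntrl libraries held 2 to 13 counts each, the shCdk8-1 libraries 66 to 101 and the shCdk8-2 libraries 23 to 65. The groups did not overlap, and the fitted changes in SnxB were 3.05 ± 0.279 and 2.47 ± 0.301, whose size depends on few counts in cntrl. Tmem136, a transmembrane protein, likewise had cntrl means below 2 CPM (1.62 in DMSO and 1.40 in SnxB) and passed the threshold through the knockdown libraries. In SnxB it read 1.69, 1.44 and 1.08 CPM in cntrl, 3.01, 2.68 and 2.49 in shCdk8-1 and 2.86, 3.02 and 3.72 in shCdk8-2 and changed by 0.96 ± 0.194 and 1.18 ± 0.189. Usp2, a deubiquitinase, was not called in SnxB, at -0.00 ± 0.129 and 0.19 ± 0.126, and read 6.89, 5.48 and 5.64 CPM in cntrl, 6.67, 6.06 and 5.18 in shCdk8-1 and 6.85, 7.17 and 6.44 in shCdk8-2. Its 3 ranges in SnxB overlapped. In DMSO Usp2 was called higher in shCdk8-2 (0.42 ± 0.128) and not called in shCdk8-1 (0.08 ± 0.134).

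**Figure D3:**
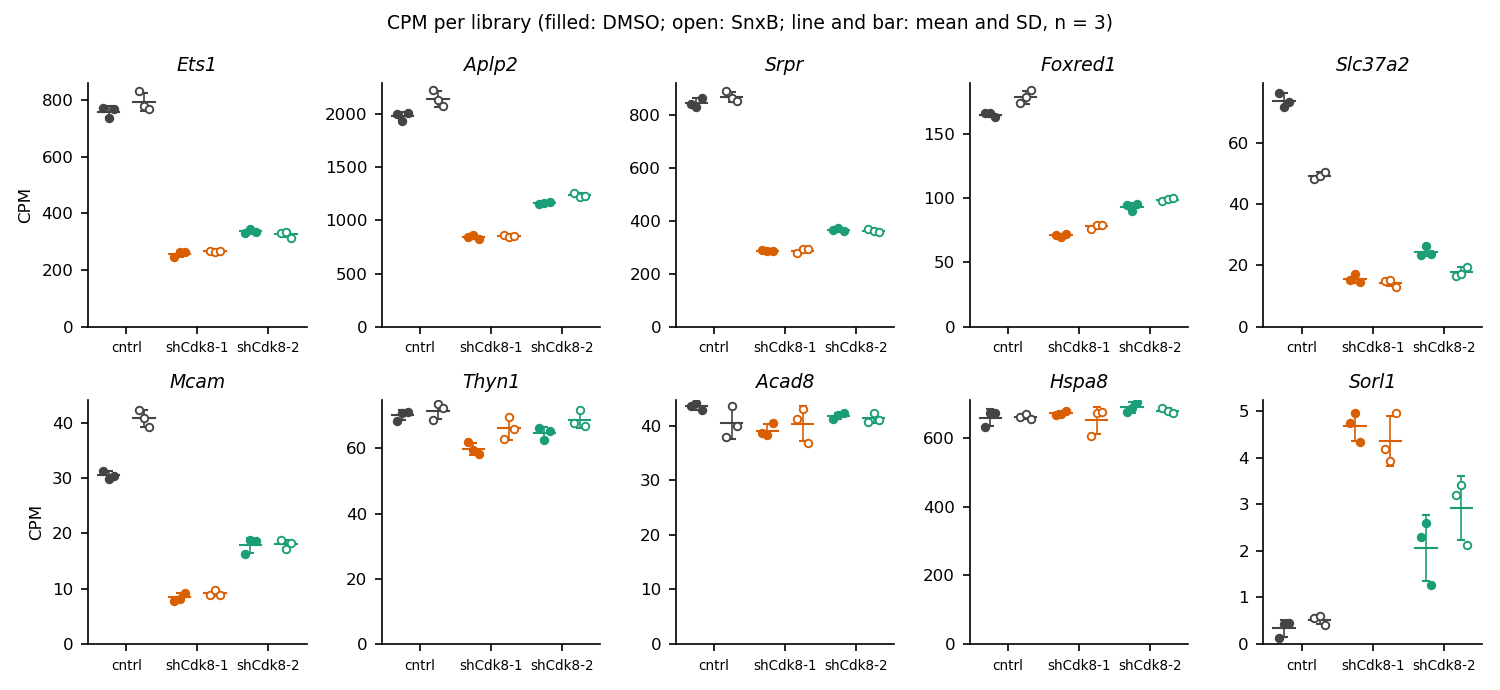
CPM of 10 members in each of the 18 libraries (points) with the group means (bars), 1 panel per gene with its own axis from 0. Ets1, Aplp2, Srpr, Foxred1, Slc37a2 and Mcam are highest in cntrl and lowest in shCdk8-1 in both treatments, Hspa8 lies between 608 and 706 CPM in all lines, and Sorl1 is lowest in cntrl.

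All 6 members in the list of adhesion and cell surface genes were lower in both lines in SnxB (30.1% and 28.6% of all genes), with medians of -1.44 and -0.99. Mcam, the adhesion molecule CD146 (ENSMUSG00000032135.15, chr9:44134469-44142727, plus strand), read 31.3, 29.8 and 30.5 CPM in cntrl, 7.85, 8.09 and 9.30 in shCdk8-1 and 16.2, 18.7 and 18.6 in shCdk8-2 in DMSO. In SnxB it read 42.3, 40.9 and 39.3 CPM in cntrl, 8.93, 9.81 and 8.94 in shCdk8-1 and 18.7, 17.2 and 18.3 in shCdk8-2. It had the lowest value of all members in shCdk8-1 (-2.15 ± 0.0729) and was nearer to cntrl in shCdk8-2 (-1.17 ± 0.0665). Cdon, a cell surface co-receptor for Hedgehog ligands, read 42.6, 36.5 and 36.0 CPM in cntrl, 10.97, 12.1 and 10.3 in shCdk8-1 and 17.2, 15.4 and 15.9 in shCdk8-2. It changed by -1.79 ± 0.0854 and -1.24 ± 0.0811. Tirap, an adaptor of Toll-like receptors, read 143, 133 and 135 CPM in cntrl, 50.4, 47.1 and 43.6 in shCdk8-1 and 49.3, 48.1 and 51.6 in shCdk8-2. Its values of -1.54 ± 0.0480 and -1.46 ± 0.0478 were close to each other, and the knockdown lines overlapped. Clmp, a tight junction protein, read 317, 313 and 297 CPM in cntrl, 218, 215 and 215 in shCdk8-1 and 258, 249 and 241 in shCdk8-2. Nectin1, which joins neighboring cells at adherens junctions, read 70.9, 63.1 and 69.4 CPM in cntrl, 34.3, 33.4 and 30.4 in shCdk8-1 and 42.9, 43.4 and 41.1 in shCdk8-2. Clmp changed by -0.52 ± 0.0333 and -0.31 ± 0.0331 and Nectin1 by -1.05 ± 0.0590 and -0.67 ± 0.0574, with no overlap of lines in either gene.

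Of the 14 members in the list of metabolism, mitochondria and RNA, 12 were lower, 1 higher and 1 not called in shCdk8-1 in SnxB, and 11 were lower and 3 not called in shCdk8-2, with medians of -1.05 and -0.78, beside the same shares of all genes. Arhgef12, an exchange factor that activates RhoA, read 397, 323 and 324 CPM in cntrl, 256, 207 and 239.7 in shCdk8-1 and 277, 243 and 241 in shCdk8-2. It changed by -0.57 ± 0.0841 and -0.46 ± 0.0838, and the knockdown lines overlapped. Sc5d, the sterol C5-desaturase of cholesterol synthesis, went the other way and read 215, 222 and 218 CPM in cntrl, 270.3, 281 and 265 in shCdk8-1 and 225, 223 and 242 in shCdk8-2. It was higher in shCdk8-1 (0.32 ± 0.0456) and was not called in shCdk8-2 (0.08 ± 0.0457). Dcps, which clears the cap left after mRNA decay, read 229, 249 and 237 CPM in cntrl, 102, 115 and 111 in shCdk8-1 and 123, 129 and 125 in shCdk8-2. Gramd1b, which moves cholesterol from the plasma membrane to the endoplasmic reticulum, read 224, 208 and 213 CPM in cntrl, 115, 94.8 and 102 in shCdk8-1 and 106, 102 and 103 in shCdk8-2. Dcps changed by -1.12 ± 0.0448 and -0.92 ± 0.0444, and Gramd1b by -1.05 ± 0.0515 and -1.05 ± 0.0515, values at which the knockdown lines overlapped. Slc37a2, a phosphate and sugar phosphate exchanger of the endoplasmic reticulum, had the lowest mean change of both lines in SnxB after Mcam: it read 48.1, 49.2 and 50.3 CPM in cntrl, 14.8, 15.3 and 12.96 in shCdk8-1 and 16.6, 17.3 and 19.6 in shCdk8-2, with changes of -1.78 ± 0.0712 and -1.47 ± 0.0690.

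Among the 42 members with a promoter window in RefSeq, 4 pairs start head to head with windows that overlap. Members without a window and genes that are not members were not searched. These 4 divergent pairs are shown here to set members with a common promoter region side by side. Their promoters are printed on the plus strand of GRCm38.p6 as RefSeq gives them, with the stretch between the 2 RefSeq starts in capitals. Each window runs from 250 bases before to 50 bases after the start of the gene on the plus strand.
Acad8 and Thyn1, chr9:26999427-26999726: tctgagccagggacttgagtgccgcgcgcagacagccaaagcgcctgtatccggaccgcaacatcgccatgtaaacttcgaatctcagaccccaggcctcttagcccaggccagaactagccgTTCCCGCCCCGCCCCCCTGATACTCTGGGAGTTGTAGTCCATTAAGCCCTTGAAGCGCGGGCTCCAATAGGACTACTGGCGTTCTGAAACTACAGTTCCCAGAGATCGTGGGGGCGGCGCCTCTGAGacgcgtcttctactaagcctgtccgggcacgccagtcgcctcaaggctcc
Vps26b and Ncapd3, chr9:27029915-27030214: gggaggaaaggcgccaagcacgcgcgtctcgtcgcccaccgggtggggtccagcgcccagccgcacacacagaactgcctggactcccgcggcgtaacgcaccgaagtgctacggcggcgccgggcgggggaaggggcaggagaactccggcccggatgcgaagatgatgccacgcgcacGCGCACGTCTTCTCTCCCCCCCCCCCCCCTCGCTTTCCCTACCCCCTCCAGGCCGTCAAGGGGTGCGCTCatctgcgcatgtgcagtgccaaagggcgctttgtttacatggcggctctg
Foxred1 and Srpr, chr9:35210953-35211252: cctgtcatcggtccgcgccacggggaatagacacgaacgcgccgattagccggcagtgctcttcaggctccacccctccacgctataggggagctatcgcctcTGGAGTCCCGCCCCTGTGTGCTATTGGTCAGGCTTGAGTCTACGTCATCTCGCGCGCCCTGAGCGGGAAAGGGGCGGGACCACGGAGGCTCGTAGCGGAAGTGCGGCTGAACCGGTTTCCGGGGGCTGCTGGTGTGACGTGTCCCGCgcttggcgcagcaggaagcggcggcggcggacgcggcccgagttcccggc
Fam118b and Rpusd4, chr9:35267631-35267930: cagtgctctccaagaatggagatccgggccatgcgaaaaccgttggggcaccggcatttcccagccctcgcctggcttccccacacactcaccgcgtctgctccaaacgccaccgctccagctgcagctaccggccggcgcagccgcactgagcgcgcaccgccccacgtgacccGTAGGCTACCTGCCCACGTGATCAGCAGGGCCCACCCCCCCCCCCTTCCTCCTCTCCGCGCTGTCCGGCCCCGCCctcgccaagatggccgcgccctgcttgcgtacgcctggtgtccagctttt

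The starts lie 128 bases apart for Acad8 and Thyn1, 71 for Vps26b and Ncapd3, 148 for Foxred1 and Srpr and 76 for Fam118b and Rpusd4. Acad8, an enzyme of valine breakdown, and Thyn1 were the pair closest to cntrl. Acad8 read 37.9, 43.6 and 39.9 CPM in cntrl, 41.2, 43.0 and 36.8 in shCdk8-1 and 40.7, 42.3 and 40.9 in shCdk8-2 in SnxB, and its ranges overlapped (-0.01 ± 0.0559 and 0.03 ± 0.0557). Thyn1 changed by -0.11 ± 0.0452 (adjusted p = 0.0361) and -0.06 ± 0.0450 (adjusted p = 0.295), and the call in shCdk8-1 was lost in 13 of 24 alternative analyses. In DMSO, Acad8 was called lower in shCdk8-1 (-0.16) and not in shCdk8-2 (-0.07). Thyn1 was called lower in both lines in DMSO (-0.23 and -0.12). The next pair was lower in both lines: Vps26b, a subunit of the retromer, was at -0.26 ± 0.0398 and -0.28 ± 0.0398, and Ncapd3 at -0.52 ± 0.0524 and -0.44 ± 0.0522.

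The other two pairs lie in the trough. Foxred1, an assembly factor of mitochondrial complex I, read 174, 179 and 184 CPM in cntrl, 76.0, 79.0 and 79.5 in shCdk8-1 and 98.1, 99.1 and 99.9 in shCdk8-2, and changed by -1.19 ± 0.0340 and -0.85 ± 0.0334. Its partner Srpr fell further in both lines, as given above. Fam118b changed by -1.32 ± 0.0476 and -1.03 ± 0.0467 and Rpusd4, a pseudouridine synthase of mitochondrial RNA, by -1.30 ± 0.0540 and -1.09 ± 0.0533, values that lay close together in each line. The difference within a pair was not tested. Srpr overlaps Tirap, Foxred1 and Fam118b on the opposite strand. Counting used strand, and these values rest on that setting.

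**Figure D4:**
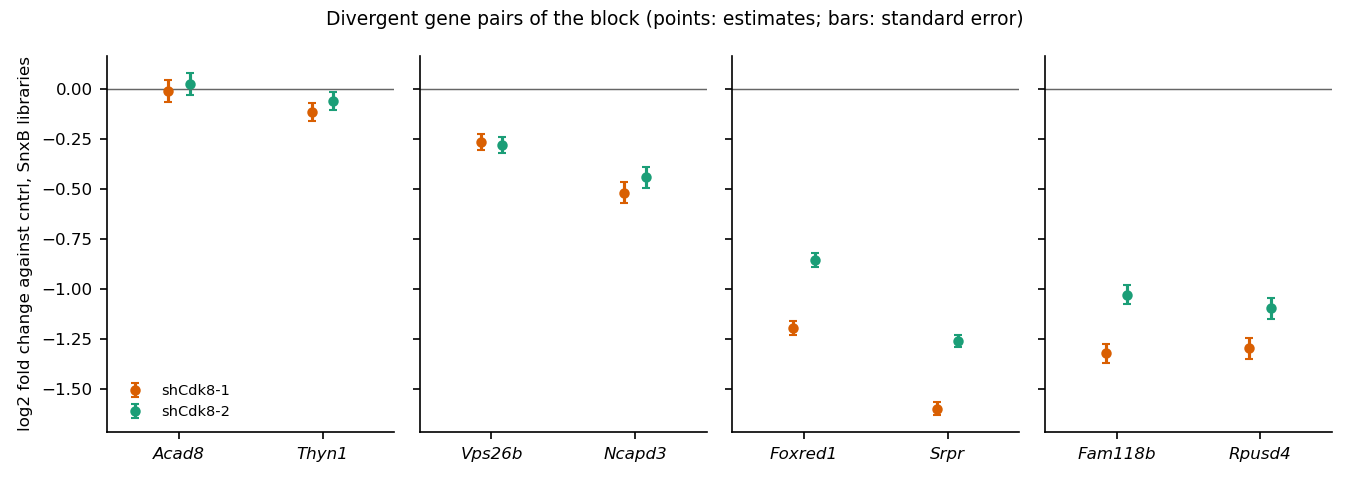
Log2 fold change against cntrl in SnxB (points, with standard error bars) of both genes of the 4 head-to-head pairs in shCdk8-1 and shCdk8-2. The pair of Acad8 and Thyn1 lies near 0 and the pairs in the middle of the block between -0.85 and -1.60, with Vps26b and Ncapd3 in between.

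A promoter window of this length was found in RefSeq for 42 of the 50 members, 1 of them under an older symbol. Its median GC content was 64.8%, beside 61.3% for 8153 expressed protein-coding genes. The letters CCGGAAG, the core bound by ETS factors, stood on either strand in 8 of the 42 windows (19.0%), those of Herpud2, Tirap, Hyls1, Msantd2, Tbrg1, Zfp202, Tbcel and Arhgef12. The share was 20.8% among expressed genes and 8.86% among all 32851 entries. TATAAA on either strand was in 0 of 42, beside 6.28% of expressed genes. A match is a description of letters and not a site. Neither motif contains the other. The RefSeq start lay farthest from the start of the gene as counted for Tbcel (35571 bases), Cdon (30948), Usp2 (17899) and Srpr (11028). Where a gene had several entries, the nearest to the counted start was taken for members and the first for the expressed genes.

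The knockdown lines also differed from each other. In SnxB, 28 members were higher in shCdk8-2 than in shCdk8-1, beside 10.6% of all genes, and 3 were lower, beside 10.3%. In DMSO the counts were 29 (11.3%) and 3 (10.6%), and 27 genes were higher in shCdk8-2 in both treatments. The median differences were 0.20 on the log2 scale in either treatment. Level by level, 39 of 50 members in SnxB and 40 in DMSO had the order cntrl, shCdk8-2, shCdk8-1 from high to low. The share of all genes with this order was not counted. That cntrl stood highest goes with the rule, which picked an interval lower in both knockdown lines. Of the members called, the largest differences in SnxB were in Mcam (0.97 ± 0.0786, adjusted p = 2.57e-08), Sorl1 (-0.58 ± 0.201, adjusted p = 0.0474), St3gal4 (0.57 ± 0.0453, adjusted p = 1.94e-08), Cdon (0.55 ± 0.0929, adjusted p = 0.000223) and Aplp2 (0.54 ± 0.0336, adjusted p = 8.52e-10). The call of Sorl1 was lost in 14 of 24 alternative analyses. St3gal4, a sialyltransferase, read 197, 199 and 193 CPM in cntrl, 58.7, 63.6 and 65.6 in shCdk8-1 and 89.9, 96.9 and 93.1 in shCdk8-2. The 3 members lower in shCdk8-2 than in shCdk8-1 were Ubash3b, Sorl1 and Sc5d, all of which were higher in shCdk8-1 than in cntrl, so in these genes too shCdk8-2 lay nearer to cntrl. Cdk8 itself lay in the same order of lines, and a link between its level and that of the block was not tested. The libraries of these comparisons also enter the comparisons with cntrl.

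SnxB, which inhibits the kinase that the hairpins deplete, moved few genes, within the block as among all genes tested. In cntrl cells 2 members were lower and 3 higher in SnxB than in DMSO, beside 2.10% and 3.42% of all genes. The median change of the members was 0.03. Slc37a2 fell from 76.3, 71.6 and 73.3 CPM to 48.1, 49.2 and 50.3 (-0.58 ± 0.0538, adjusted p = 1.10e-05). Mcam rose from 31.3, 29.8 and 30.5 CPM to 42.3, 40.9 and 39.3 (0.42 ± 0.0646, adjusted p = 0.000921). The groups did not overlap in either gene. Vwa5a fell by 0.25 on the log2 scale, Clmp rose by 0.16 and Oaf by 0.14. In shCdk8-1 cells Vwa5a was lower in SnxB, at -0.26 ± 0.0519 (adjusted p = 0.00872) and no member was higher, beside 0.564% and 0.916% of all genes. In shCdk8-2 cells Slc37a2 (-0.46 ± 0.0730, adjusted p = 0.00101) and Vwa5a (-0.22 ± 0.0490, adjusted p = 0.0166) were lower and no member was higher, beside 1.06% and 0.987%. By an unadjusted p under 0.05 in edgeR, 8 members in shCdk8-1 and 8 in shCdk8-2 differed in either direction, and DESeq2 called 1 member higher in each line. Without the shCdk8-1 library in SnxB numbered 1, 2 members were lower and 4 higher in shCdk8-1 cells. Shares of all genes by unadjusted p, under DESeq2 and without this library are not given. Nothing about the members is therefore read from these last counts.

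The block's summed level changed little with SnxB. It was 11167 ± 153 CPM (SD, n = 3) in DMSO and 11506 ± 285 in SnxB in cntrl cells, a difference of 3.04% (two-sided exact permutation test over libraries, p = 0.2). In shCdk8-1 it was 6056 ± 125 and 6060 ± 39.0 CPM (0.0718%, exact permutation p = 1), and in shCdk8-2 6974 ± 29.5 and 7051 ± 83.7 CPM (1.12%, exact permutation p = 0.2). With 3 libraries against 3 the smallest p this test can give is 0.1, so it could not pass 0.05.

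**Figure D5:**
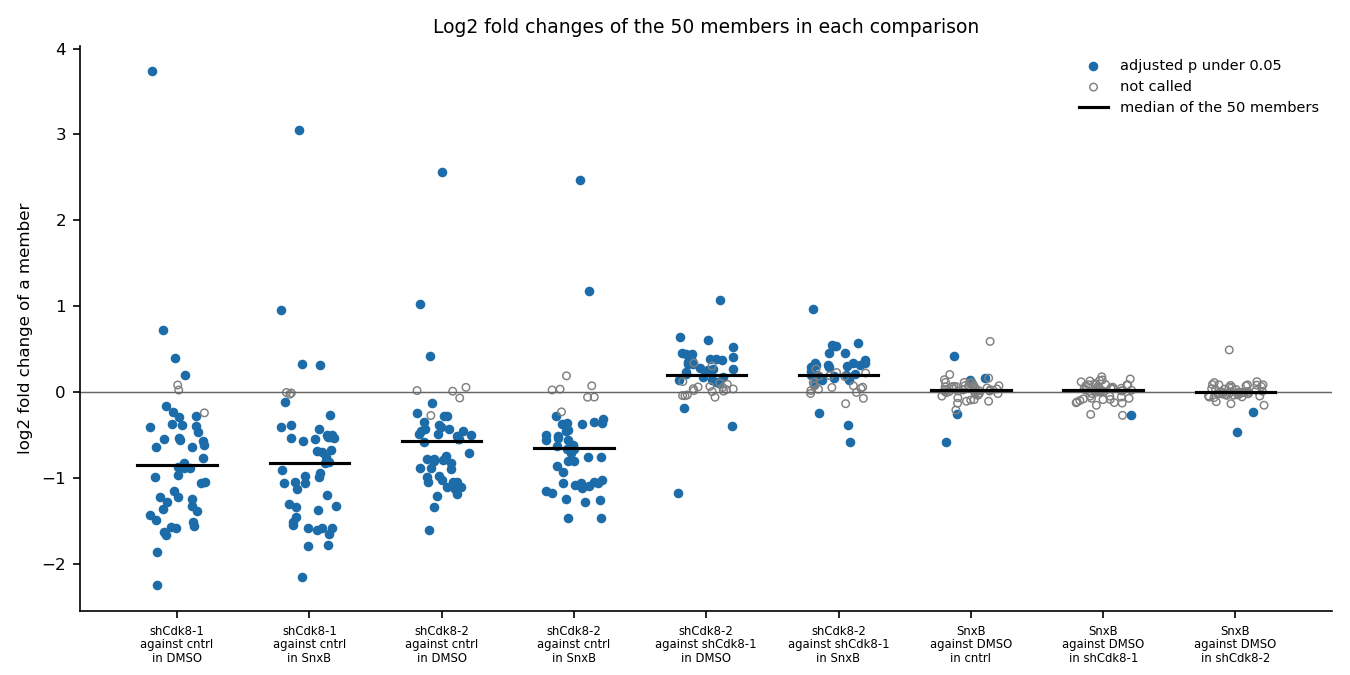
Log2 fold changes of the 50 members (points) in 9 comparisons, with the median of each (line). In the 4 comparisons of a knockdown line with cntrl the medians are -0.85, -0.57, -0.82 and -0.64, in the 2 comparisons of shCdk8-2 with shCdk8-1 they are 0.20, and in the 3 comparisons of SnxB with DMSO they are within 0.03 of 0.

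Genes outside the interval that are relatives of Ets1, or whose products work with those of the block, were counted for comparison in 4 lists. Of 15 other ETS family genes, 7 were lower, 3 higher and 5 not called in shCdk8-1 in SnxB, and 9, 3 and 3 in shCdk8-2. Elf3, an epithelial ETS factor, was higher on the log2 scale by 2.40 and 1.94. Of 17 genes of the ATR and CHK1 checkpoint, 3 were lower and 7 higher in shCdk8-1 and 2 lower and 7 higher in shCdk8-2, none by a fold of 2. Of 15 cochaperones and partners of HSC70, 11 were higher and 2 lower in shCdk8-1 and 10 higher and 2 lower in shCdk8-2, with Hsp90aa1, the inducible HSP90, higher by 1.20 and 1.10. Of 9 genes of CBL partners and receptor uptake, 6 were lower and 3 higher in shCdk8-1 and 5 lower and 3 higher in shCdk8-2. Egfr, the receptor that CBL marks with ubiquitin, was at -2.11 and -1.73. The shares of all genes are those given for the block.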

How the data were processed

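Expression was measured by RNA-seq in 18 libraries of E0771 cells, 3 for each of the lines cntrl, shCdk8-1 and shCdk8-2 in DMSO and after 48 h of SnxB. The authors used Trimmomatic on the single-end reads, STAR for mapping to GRCm38 (GENCODE M13) and featureCounts 1.5.1, with strand, for counting on exons. They deposited raw counts of 50686 genes, neither normalized nor pooled, and symbols were matched by gene identifier for 50462 of them. Library totals ran from 16452260 to 22664693, and 0 pairs of libraries were identical. No column of other samples was left unused.

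The members, gene lists and tests were chosen with earlier results of these data known. The test was edgeR's quasi-likelihood test (edgeR 4.0.16, limma 3.58.1, R 4.3.3) after TMM scaling and filterByExpr (minimum count 10, minimum total 15), with Benjamini-Hochberg adjustment over every gene that passed the filter. The DMSO libraries and those of cntrl in SnxB, 12 in all, were fitted together for the comparisons they allow, and all 18 for the rest. A gene was called at an adjusted p under 0.05 and, separately, with a fold above 2, the thresholds of the study. Standard errors came from the quasi-likelihood F statistic. CPM values used TMM over 18 libraries. In shCdk8-2 the file headers number the replicates 2, 3 and 3 where the labels have 1, 2 and 3. The labels were followed.

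The genes named are those at the edges of the interval and the 4 with the highest mean CPM in each list. Further ones are the 5 lowest and 5 highest in SnxB and those called for SnxB (up to 5 a line). The 5 called with the largest difference between the knockdown lines in SnxB are named too. So are Cdk8, Cdk19, the head-to-head pairs and the genes of the lists outside the interval with a fold above 2 in both lines. Chek1 and the remaining list members given by 1 value per line were named after their values were seen. Alternatives were DESeq2 1.42.0, scaling by its size factors or by library totals, no filter, a replicate block, other libraries in the fit, an adjusted p under 0.01, other CPM thresholds for membership, and each library left out in turn. On simulated counts, the comparison of shCdk8-1 with cntrl in SnxB recovered 100 of 100 genes changed 2-fold and 91 of 100 changed 1.5-fold, with 10 unchanged genes called among 12456. Only these genes were changed, as many up as down, whereas in the data 30.1% of genes were called lower and 30.5% higher. The simulated numbers therefore do not give the error rates of that comparison. For SnxB against DMSO in cntrl, simulated with no change, 0 of 12370 genes were called. Promoter windows are from RefSeq for GRCm38.p6. Sums were compared with scipy 1.17.1, and figures drawn with matplotlib 3.10.9.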

Additional observations from a re-analysis of the deposited data

How the results depend on the processing

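No call of a member changed direction under any alternative that was run. The tallies of calls kept or lost use 24 alternatives per gene. The adjusted p under 0.01 and the other CPM thresholds are not among these. Of 47 members called in shCdk8-1 against cntrl in SnxB, 1115 of 1128 values under the alternatives kept the call and the other 13 were all of Thyn1. For shCdk8-2, 1032 of 1032 kept it. For shCdk8-2 against shCdk8-1, 50 of 744 values lost the call in SnxB, in 8 genes (Herpud2, Rpusd4, Sept7, Slc37a2, Snx19, Sorl1, Stt3a and Zfp202), and 33 of 768 in DMSO, in 7 genes. In comparisons from the fit of 12 libraries, leaving out a knockdown library in SnxB repeated the same fit. Such values could not lose a call but are in the totals. For SnxB against DMSO, the call of Oaf in cntrl was lost once, and that of Vwa5a once in shCdk8-1 and 4 times in shCdk8-2. With the block's members taken above 5 CPM (48 members), the members called higher fell to 2 and 1 in shCdk8-1 and shCdk8-2 in DMSO and to 2 and 0 in SnxB, since Sorl1 and Tmem136 then drop out, and the medians became -0.64 for shCdk8-2 in DMSO and -0.86 for shCdk8-1 in SnxB. Above 1 CPM (55 members) the median for shCdk8-2 in DMSO was -0.70. Library totals in place of TMM gave medians of -0.77 and -0.58 in SnxB with 4 members higher in shCdk8-2, and summed levels of 7051 CPM in shCdk8-2 in DMSO and of 11186, 6107 and 7150.2 CPM in cntrl, shCdk8-1 and shCdk8-2 in SnxB. For SnxB against DMSO in shCdk8-1, 1 member was higher under DESeq2, library totals or no filter, 3 were lower with no filter, and 0 were lower with other libraries fitted together. In shCdk8-2, 1 was higher under DESeq2 or library totals, and 1 was lower at an adjusted p under 0.01. The SnxB response of shCdk8-1 minus that of cntrl gave 1 member higher under DESeq2, library totals or no filter, and 1 lower with no filter. The cause of these shifts was not tested, except that other thresholds change the members.

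Leaving out 1 library at a time moved the median for shCdk8-2 in DMSO between -0.62 and -0.52 and that for shCdk8-1 in SnxB between -0.86 and -0.79. The members higher in SnxB in shCdk8-1 ran from 0 to 4 and those lower from 1 to 2, with 4 and 2 without the shCdk8-1 library in SnxB numbered 1, and higher counts of 2 without the cntrl library in SnxB numbered 1. In shCdk8-2 the counts ran from 0 to 1 higher and from 1 to 2 lower, and for the difference of responses from 0 to 1 higher. Shares of all genes were not set beside these counts.

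The replicate numbers do not pair the libraries: the deviations of same-numbered libraries had a mean r of -0.0114 (-0.25 to 0.318, with 5 of 45 pairs over 0.1), and those of libraries with different numbers 0.00607. With the replicate number as a block, 43 members were lower and 4 higher in shCdk8-1 in either treatment, 42 and 3 in shCdk8-2 in DMSO and 41 and 2 in SnxB, and 26 (DMSO) and 27 (SnxB) were higher in shCdk8-2 than in shCdk8-1. Depth limits Sorl1, whose cntrl libraries held 2 to 13 counts each.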

Other observations

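Of the 163 protein-coding genes of the interval below the threshold, 106 had no count in any library and 7 had a mean above 0.5 CPM. Arhgap32, a GTPase-activating protein that lies between Zbtb44 and Ets1, was at 0 CPM in the lowest cntrl libraries and held at most 3 counts in any of them. It read 0, 0 and 0.0513 CPM in cntrl in SnxB, 2.20, 1.78 and 2.54 in shCdk8-1 and 0.986, 1.08 and 0.650 in shCdk8-2, so it was higher in both knockdown lines amid members that were lower. Olfr920, an olfactory receptor gene, went with the members instead and read 3.50, 2.55 and 2.46 CPM in cntrl, 0.914, 0.713 and 0.476 in shCdk8-1 and 0.936, 0.626 and 0.532 in shCdk8-2. Both were named after their values were seen.

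The response to SnxB in a knockdown line minus that in cntrl was tested as an interaction in edgeR. Among the members 0 were called for either line, beside 0.305% and 0.0548% of all genes in either direction, and 5 members for shCdk8-1 and 2 for shCdk8-2 had an unadjusted p under 0.05. DESeq2 called 1 member higher for shCdk8-1 and 0 for shCdk8-2. Shares of all genes by unadjusted p and under DESeq2 are not given, so nothing is read from those counts. The lowest adjusted p was 0.0541 for Slc37a2 in shCdk8-1 (0.46 ± 0.1004) and 0.228 for Mcam in shCdk8-2 (-0.40 ± 0.0950).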
